A study of Mus musculus with 18 samples.

Results

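The immediate early genes are a group of genes that a cell switches on within minutes of a growth, stress or hormone signal, without making new protein first. The 10 described here, Fos, Fosb, Jun, Junb, Atf3, Egr1, Nr4a1, Ier2, Zfp36 and Dusp1, were chosen by symbol, not by their values, and all 10 were found among the 19545 rows of the deposited table of kidney gene expression. In the kidney these genes are known to respond to injury, to ischaemia and to hormones. Signals that pass through mitogen-activated protein kinases reach them at serum response factor, which binds CArG boxes, and signals through cyclic AMP and calcium reach them at CREB, which binds the cyclic AMP response element (CRE). Their transcripts are short-lived, and several of the proteins shut the response down again.

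The data are 18 RNA sequencing libraries of kidney from ICR mice, all aged 10 weeks, and the study asked about microbiota transfer to mice with kidneys damaged by STZ. Of the 6 groups, 2 had no STZ: the control group, and a group that received 10 mg/kg of AOS, called AOS here. The other 4 groups had STZ, read as streptozotocin, which destroys insulin-producing cells and serves as a rodent model of diabetes: STZ with nothing else, STZ with 10 mg/kg of AOS (STZ+AOS), and STZ with a faecal microbiota transplantation (FMT) whose donors are read to have had AOS (STZ+AOS-FMT) or no AOS (STZ+control-FMT). AOS is not spelled out in the labels. Each group has 3 libraries, named below by group and replicate number. Values are FPKM, which are scaled to gene length and to the reads assigned in each library, so levels of different genes can be set side by side. The labels do not say that each library is a different mouse, so the p-values may reflect technical spread only.

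Some libraries stood apart from their group in other transcripts. The summed level of 8 adrenal cortex markers was 682.57 FPKM in control 3, 1822.32 in STZ+AOS 1 and 1388.54 in STZ+AOS 3, and between 2.51 and 91.81 FPKM in the other 15 libraries. Cyp11b1, an adrenal steroid hydroxylase, exceeded 100 FPKM in the same 3 libraries. Spermatid markers summed to between 21.37 and 83.79 FPKM in all 6 control and STZ libraries and to at most 0.59 in the other 12. The kidney label itself held: proximal tubule markers summed to between 2048.69 and 4385.40 FPKM, and Umod, the abundant urinary protein of the thick ascending limb, lay between 306.69 and 1031.72 FPKM. In a bulk tissue such as this, fewer cells of a type and less RNA per cell cannot be told apart.

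The promoters are shown first because these genes are known to be induced through short elements near their starts. RefSeq (GRCm38.p6) promoters, 250 bases before to 50 bases after the annotated start, were matched by symbol for 8 of the 10 genes, all but Egr1 and Ier2. The lines below give 150 bases before the start for Fos, Fosb, Junb and Nr4a1. For Dusp1 they give the 103 of these bases that lie before an annotated untranslated region, and for Zfp36 30 bases around 1 element. In Zfp36 all 150 bases lie within an annotated untranslated region, so its element is before the RefSeq start but inside that region. All lines run 5′ to 3′ on the strand of the gene. Capitals mark TGACG on either strand (read as CGTCA on the other), which is the short form of the CRE, and in Zfp36 the CArG box.
Fos: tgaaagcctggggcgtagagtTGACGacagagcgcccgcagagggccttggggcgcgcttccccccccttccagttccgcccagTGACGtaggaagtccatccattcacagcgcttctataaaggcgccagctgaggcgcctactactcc
Fosb: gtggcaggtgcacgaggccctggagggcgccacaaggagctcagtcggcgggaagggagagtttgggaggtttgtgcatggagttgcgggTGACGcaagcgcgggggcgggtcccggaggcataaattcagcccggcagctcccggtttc
Junb: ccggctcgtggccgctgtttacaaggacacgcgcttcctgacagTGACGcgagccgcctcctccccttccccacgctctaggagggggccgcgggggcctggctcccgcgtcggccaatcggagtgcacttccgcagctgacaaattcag
Nr4a1: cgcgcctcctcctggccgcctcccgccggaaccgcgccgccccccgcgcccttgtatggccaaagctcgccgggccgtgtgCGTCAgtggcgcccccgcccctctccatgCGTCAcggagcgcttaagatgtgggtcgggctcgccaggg
Dusp1: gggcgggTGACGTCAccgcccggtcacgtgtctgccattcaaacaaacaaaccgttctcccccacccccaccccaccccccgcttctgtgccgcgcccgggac
Zfp36: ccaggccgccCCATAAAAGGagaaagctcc
These stretches lie at chr12:85473740-85473889 on the plus strand for Fos, chr7:19310046-19310195 on the minus strand for Fosb, chr8:84978749-84978898 on the minus strand for Junb, chr15:101266696-101266845 on the plus strand for Nr4a1, chr17:26508520-26508622 on the minus strand for Dusp1 and chr7:28379267-28379296 on the minus strand for Zfp36.

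Over the whole 300 bases and both strands, TGACG was present in 6 of the 8 promoters, those of Fos, Fosb, Junb, Atf3, Nr4a1 and Dusp1, and in 20.8% of the 32851 promoters of the same length outside chromosome 18. It was also present in 37 of 71 promoters of the family relatives and other early response genes described below. In Fos it began 129 and 66 bases before the start, and in Nr4a1 it occurred 4 times, at 233, 213, 69 and 40 bases before the start. The full palindrome TGACGTCA, which contains the short form on both strands, was found 143 bases before the start of Dusp1 and in 1.79% of all promoters. Among the 8 promoters a CArG box was matched in Zfp36 only, 58 bases before the start, and in 1.63% of all promoters. Bases further upstream were not searched, and neither were the promoters of Egr1 and Ier2. A missing match therefore does not show that a member lacks a CArG box. The letters GCGNGGGCG, which EGR proteins bind, were matched in Fosb, Nr4a1 and Zfp36 in 13 of those 71 promoters and in 5.55% of all. The AP-1 site TGANTCA, at 7.81% of all promoters, and the Nr4a1 site AAAGGTCA, at 1.51%, were matched in none of the 8. TATAAA was matched in Fos, 33 bases before the start, in Junb, beginning at the start itself, and in 13.6% of all promoters. The RefSeq starts used here can differ from the ends of the GENCODE loci given below, as for Junb, Nr4a1, Dusp1 and Zfp36. A match describes letters in this window and is not shown to be a bound site.

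**Figure D1:**
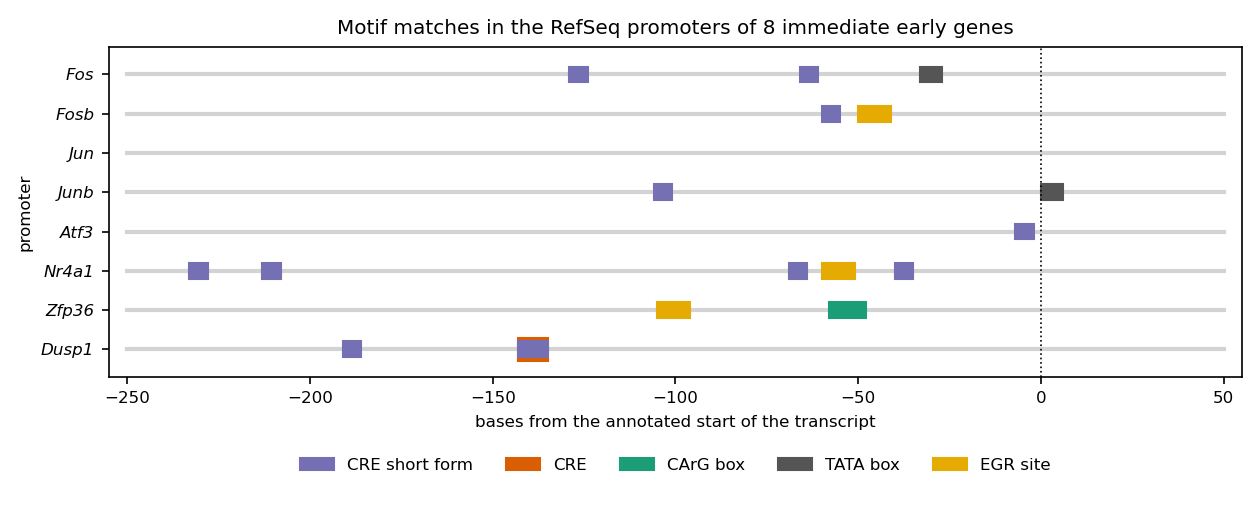
Positions of the matched motifs along the 300 bases of each of the 8 promoters, in bases from the annotated start (dotted line); each coloured block is 1 match on either strand, and the full CRE is drawn taller than the short form it contains. The short form stands in 6 of the 8 promoters, and no motif was matched in Jun.

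Fos and Fosb encode the Fos partners of the AP-1 dimer, and Fos was the widest-ranging member. The genes lie at chr12:85473890-85477273 (plus strand) and chr7:19302696-19310051 (minus strand), in mm10 coordinates of GENCODE, as below. In control 1, 2 and 3 Fos measured 0.51, 0.72 and 3.29 FPKM, and in the AOS libraries 0.63, 0.59 and 0.35. The 3 STZ libraries gave 3.65, 0.67 and 8.89 FPKM and the STZ+AOS libraries 3.84, 3.76 and 4.31. With a transfer, Fos measured 2.46, 0.90 and 1.19 FPKM in STZ+AOS-FMT and 4.14, 47.29 and 4.08 in STZ+control-FMT. Replicate 2 of STZ+control-FMT thus lay 11.4 times above the higher of the other 2 libraries of its group, and the lowest and highest of the 18 libraries differed 135-fold. The STZ+AOS libraries, by contrast, kept within 3.76 to 4.31 FPKM, above all 3 AOS libraries and all 3 STZ+AOS-FMT libraries. Fosb, a close relative of Fos, was scarce in all libraries, between 0.05 and 0.76 FPKM in 17 of them and at 3.09 in STZ+control-FMT 2. It reached 1 FPKM in that library alone, under the minimum for testing, so the tests below hold the other 9 genes.

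Jun and Junb encode the Jun partners of the dimer and were more abundant and ranged less widely than Fos. They lie on the minus strand at chr4:95049034-95052222 and chr8:84974484-84978718. Jun, which has 1 annotated exon, measured 5.56, 12.76 and 15.99 FPKM in control, 10.70, 8.33 and 7.78 in AOS, and 21.69, 12.38 and 14.53 in STZ. It reached 28.37, 18.83 and 28.48 FPKM in STZ+AOS, 13.11, 18.14 and 21.61 in STZ+AOS-FMT, and 15.44, 56.57 and 30.50 in STZ+control-FMT. Every STZ library of any kind therefore lay above every AOS library, while the control range overlapped both. Junb, which opposes Jun at some promoters, measured 6.63, 5.71 and 24.92 FPKM in control, 7.58, 8.41 and 5.02 in AOS, and 12.64, 8.05 and 25.84 in STZ. Its STZ+AOS values were 41.60, 20.96 and 34.92 FPKM, its STZ+AOS-FMT values 14.10, 14.36 and 10.47, and its STZ+control-FMT values 13.06, 43.29 and 13.76. Control 3 lay 3.76 times above the higher of the other 2 controls, within the range of the STZ+AOS libraries.

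Atf3, a stress-induced factor that mostly represses transcription (chr1:191170296-191218039, minus strand), was the one member with its highest value in STZ+AOS 1. It measured 0.29, 0.70 and 3.16 FPKM in control, 0.82, 0.59 and 1.00 in AOS, and 1.26, 2.14 and 6.32 in STZ. In STZ+AOS it reached 10.79, 3.87 and 4.19 FPKM, above every AOS and every control library. The transfer groups gave 2.29, 1.43 and 1.77 FPKM with AOS FMT and 0.89, 6.18 and 5.68 with control FMT. Here STZ+control-FMT 2 exceeded the next library of its group by only 1.09 times, whereas for Fos the ratio was 11.4.

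Egr1 encodes a zinc finger factor downstream of the ERK kinases and ranged 115-fold. Its values were 0.84, 1.92 and 11.52 FPKM in control, 2.50, 2.67 and 1.32 in AOS, and 11.74, 1.99 and 25.61 in STZ. They were 20.16, 7.42 and 10.09 FPKM in STZ+AOS, 2.55, 2.67 and 3.49 in STZ+AOS-FMT, and 6.42, 96.88 and 9.06 in STZ+control-FMT. The AOS and STZ+AOS-FMT libraries were low throughout, at 3.49 FPKM or less, and STZ+control-FMT 2 stood 10.7 times above the next library of its group. Nr4a1, an orphan nuclear receptor (chr15:101254269-101274795, plus strand), measured 1.61, 2.34 and 13.65 FPKM in control, 3.20, 2.92 and 1.98 in AOS, and 6.03, 3.83 and 19.01 in STZ. Its highest value was in STZ+AOS, with 15.27, 9.85 and 27.97 FPKM, against 7.27, 4.98 and 8.05 in STZ+AOS-FMT and 4.33, 25.70 and 9.21 in STZ+control-FMT. All 12 libraries with STZ lay above the 3 AOS libraries. Ier2, a nuclear protein gene with 1 annotated exon (chr8:84661331-84662852, minus strand), measured 6.68, 5.93 and 13.84 FPKM in control, 6.81, 7.23 and 5.80 in AOS, and 10.57, 6.72 and 15.20 in STZ. It measured 20.52, 13.81 and 17.82 FPKM in STZ+AOS, 8.44, 11.20 and 8.65 in STZ+AOS-FMT, and 9.63, 44.46 and 9.71 in STZ+control-FMT. Every STZ+AOS library lay above every AOS and every STZ+AOS-FMT library.

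Zfp36 and Dusp1 end the response: Zfp36 encodes tristetraprolin, which binds AU-rich elements and speeds the decay of transcripts, and Dusp1 a phosphatase that inactivates mitogen-activated protein kinases. They lie on the minus strand at chr7:28376784-28380253 and chr17:26505590-26562128. They were the most abundant members, with medians over the 18 libraries of 34.1 and 23.0 FPKM against 15.7 for Jun and 2.88 for Fos. Zfp36 measured 21.36, 20.65 and 42.89 FPKM in control, 19.22, 20.18 and 18.74 in AOS, and 31.32, 19.86 and 44.39 in STZ. It measured 37.46, 39.27 and 88.47 FPKM in STZ+AOS, 32.03, 37.52 and 34.66 in STZ+AOS-FMT, and 33.91, 82.38 and 34.20 in STZ+control-FMT. Its range, 4.72-fold, was the narrowest of the 10. Dusp1 measured 9.17, 16.75 and 30.10 FPKM in control, 12.99, 13.17 and 13.17 in AOS, and 23.87, 12.63 and 35.35 in STZ. It measured 29.91, 27.65 and 89.50 FPKM in STZ+AOS, 20.92, 18.20 and 29.67 in STZ+AOS-FMT, and 22.82, 45.79 and 23.22 in STZ+control-FMT. For both genes the top library was STZ+AOS 3 and not STZ+control-FMT 2.

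**Figure D2:**
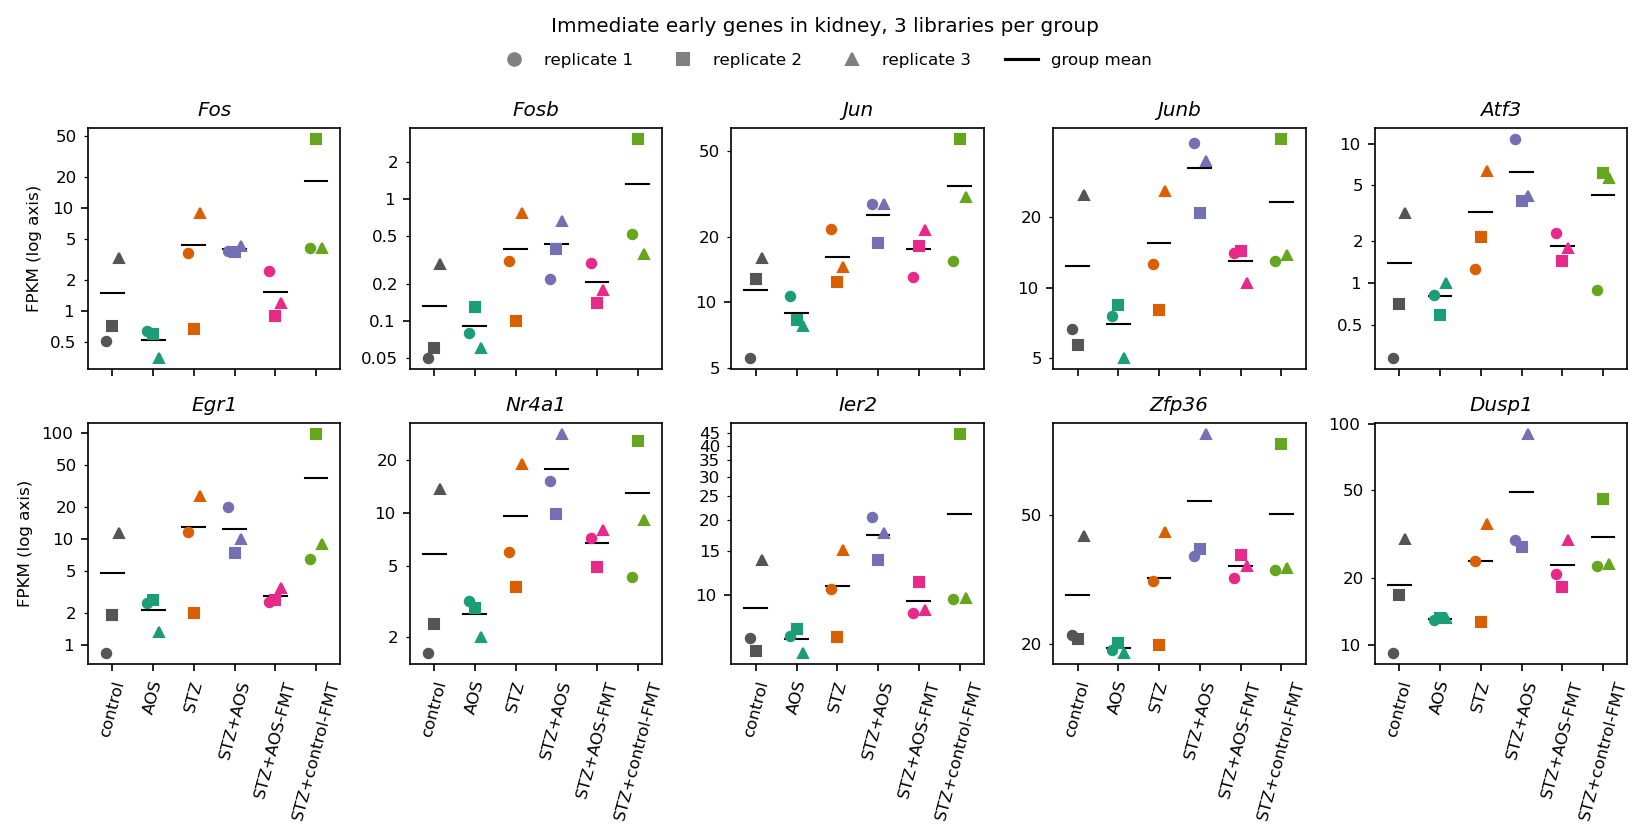
FPKM of each of the 10 genes (log axis) in the 6 groups; points are the 3 libraries of a group, with the replicate number given by the symbol, and bars are group means. The AOS libraries lie close together at the low end of every panel, and STZ+control-FMT 2 (green square) is the top point for 6 of the 10 genes.

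By group means, AOS was the lowest group for all 10 genes, as for Fos with 0.523 ± 0.151 FPKM (SD, n = 3) against 1.51 ± 1.55 in control and 18.5 ± 24.9 in STZ+control-FMT. Neighbours in the order of means overlapped in their ranges for every gene, except between STZ+AOS-FMT (1.52 ± 0.830 FPKM) and STZ+AOS (3.97 ± 0.297) for Fos and between AOS (19.4 ± 0.733) and control (28.3 ± 12.6) for Zfp36. The order of means is therefore mostly not resolved by 3 libraries per group. The place of AOS below control also rested on control 3, as the test below shows.

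The 10 genes moved together from library to library, also within groups. Control 1, control 2, AOS 1 and AOS 3 held all 10 genes in their lowest 6 libraries, and AOS 2 and STZ 2 held 9. At the other end STZ+control-FMT 2 was the highest library for Fos, Fosb, Jun, Junb, Egr1 and Ier2, STZ+AOS 3 for Nr4a1, Zfp36 and Dusp1, and STZ+AOS 1 for Atf3. Control 3 lay above every AOS library for all 10 genes, whereas control 1 did so for 1 and control 2 for 4. Likewise STZ 1 and STZ 3 lay above every AOS library for all 10 and STZ 2 for 4. In STZ+AOS all 3 libraries did so for all 10 genes.

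**Figure D3:**
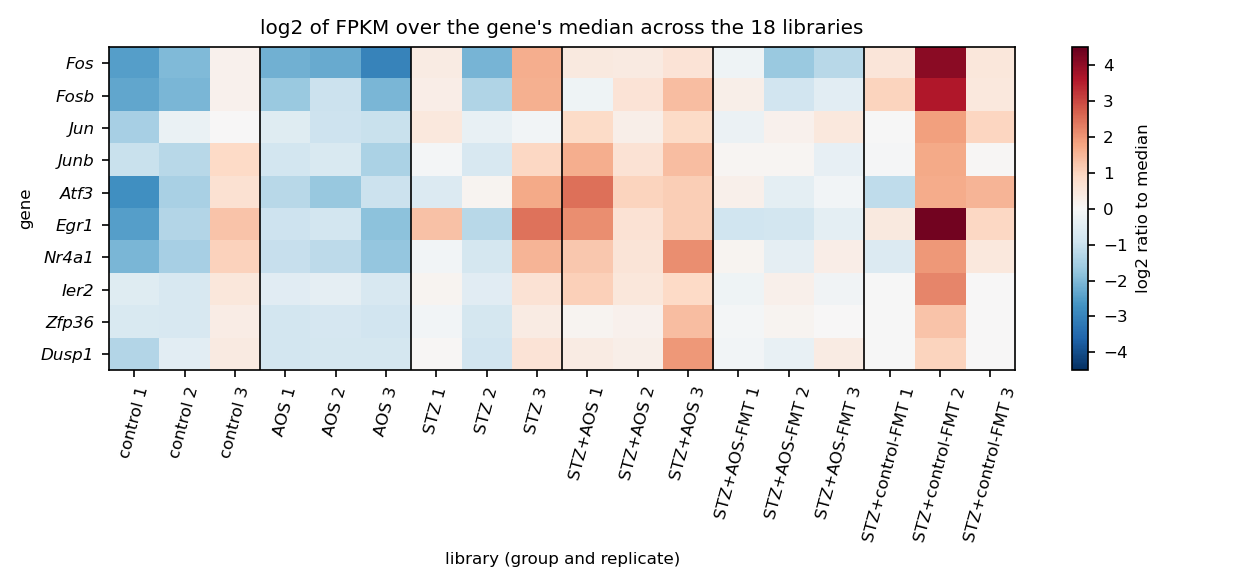
Each cell is the log2 ratio of a library's FPKM to that gene's median over the 18 libraries (red above, blue below); rows are genes and columns are libraries in group order. Many columns are mostly of 1 colour: control 1 and 2, the AOS libraries and STZ 2 are all or mostly blue. Control 3, STZ 3, the STZ+AOS libraries and STZ+control-FMT 2 and 3 are all or mostly red.

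Across the 18 libraries, which share their depth and cell makeup between genes, the 45 pairs of the 10 genes had correlations of log2(FPKM + 1) with r between 0.54 and 0.95 (median 0.81) and rank correlations between 0.71 and 0.97. After each group's mean was subtracted, r lay between 0.40 and 0.94 (median 0.75), so the genes moved together within groups too. Without STZ+control-FMT 2 the median r before subtraction of group means was 0.80. The r within groups was not computed without that library. Of the 9 tested genes, Nr4a1 followed the mean of the others most closely, with r = 0.96, and Atf3 least, with r = 0.82. These are descriptions of 18 libraries in 6 groups.

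To test the group differences, log2(FPKM + 1) of all 12682 genes that reached 1 FPKM in 3 or more libraries was fitted with limma, and p-values were adjusted by Benjamini-Hochberg over all of them, with a threshold of 0.05. Log2 differences below are on this scale, which understates changes of genes near 0, and are given ± their standard error. Junb shares exon bases with Prdx2 on the other strand, Jun with Junos, Zfp36 with Gm44710 and Dusp1 with Ergic1, and these members are uncertain to that extent, because use of the strand in counting is not stated.

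In the kidneys of mice given both STZ and AOS the immediate early genes were higher than in those given AOS alone. Junb (2.04 ± 0.53, 4.10-fold, limma adjusted p = 0.0106), Nr4a1 (2.23 ± 0.67, 4.71-fold, 0.0179) and Atf3 (1.90 ± 0.55, 3.72-fold, 0.0157) rose most among the 7 of 9 tested members that passed. Dusp1 rose by 1.61 ± 0.47 (adjusted p = 0.0162), Jun by 1.39 ± 0.40 (0.0156), Zfp36 by 1.34 ± 0.39 (0.0155) and Ier2 by 1.26 ± 0.45 (0.0354). Fos, with a difference of 1.71 ± 0.74 (adjusted p = 0.0702), and Egr1, with 2.02 ± 0.93 (0.0831), had larger errors and did not pass. All 9 tested members were higher in every STZ+AOS library than in any AOS library.

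This comparison reached far beyond these genes: 46.5% of all 12682 genes passed, 39.3% in the higher direction alone, and 49.7% were higher in every library. The members' median difference was 1.71 against 0.29 over all genes. Under quantile normalization the median of all genes moved to -0.03, and the split of all called genes from 4985 higher of 5895 to 1407 higher of 3358. The members' median was then 1.41 and 6 of 9 passed. With rescaling by median of ratios 4 of 9 passed, Junb, Atf3, Nr4a1 and Dusp1, against 33.2% of all genes (1682 higher of 4181 called).

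Marker sums of many cell types moved with this difference. The adrenal cortex sum lay between 91.81 and 1822.32 FPKM in STZ+AOS and between 3.02 and 5.41 in AOS, with the chromaffin marker sum at 18.28 to 335.58 against 0.75 to 3.86. Cyp11b1 alone measured 316.12, 14.33 and 276.00 FPKM in the 3 STZ+AOS libraries and at most 0.15 in AOS. The 6 injured tubule markers summed to 249.47 to 2639.59 FPKM in STZ+AOS and 108.53 to 121.05 in AOS. Podocyte (95.35 to 101.38 against 41.82 to 50.02 FPKM), endothelial (116.39 to 151.55 against 60.34 to 77.06), fibroblast (119.14 to 172.48 against 46.89 to 68.60) and smooth muscle sums (59.54 to 112.51 against 20.38 to 29.83) were likewise higher in every STZ+AOS library. So were the collecting duct (232.15 to 544.06 against 119.40 to 170.63 FPKM) and macrophage sums (85.71 to 179.33 against 54.32 to 83.68). The proximal tubule sum was lower in every STZ+AOS library, at 2048.69 to 2819.83 FPKM against 3869.77 to 4164.51. The sums of the other 6 marker lists overlapped between both groups. Within the lists that moved, some genes did not follow the sum. Csf1r, a macrophage marker, was lower in every STZ+AOS library (11.67, 14.97 and 9.91 FPKM against 19.29, 15.96 and 15.52 in AOS). Adgre1 and Cd68 of macrophages and Aqp3, Atp6v1b1 and Slc4a1 of the collecting duct overlapped. So did Col1a1 and Col3a1 of fibroblasts and Cubn and Aqp1 of the proximal tubule. The other genes of these lists went with the sum in every library. STZ+AOS 2, the library of the group with the least Cyp11b1, lay above the highest AOS library for all 10 genes. The ratio was 5.97 for Fos, 3.87 for Atf3, 3.08 for Nr4a1, 3.00 for Fosb, 2.78 for Egr1 and 2.49 for Junb. It was smaller for Dusp1 (2.10), Zfp36 (1.95), Ier2 (1.91) and Jun (1.76). The highest AOS library had only 0.63 FPKM of Fos, 1.00 of Atf3 and 0.13 of Fosb, so these ratios rest on low values. Its adrenal cortex sum was 91.81 FPKM and its injured tubule sum 408.63, both above every AOS library. With the 3 libraries above 100 FPKM of Cyp11b1 left out, a choice made after seeing the data, STZ+AOS has 1 library, which the fit assumes to vary like the other groups. The members' median difference was then 1.44, and 0 of 9 passed against 4.78% of all genes, so lost calls cannot be told apart from the loss of libraries. Junb then had 1.48 (adjusted p = 0.103) and Nr4a1 1.57 (0.153). Without STZ+AOS 3 alone, 3 of 9 passed (Jun, Junb and Atf3, against 45.4% of all genes), and without STZ+control-FMT 2, which enters only the spread, all 9 did. The part of adrenal RNA, of tubular injury or of cell makeup in these differences was not tested.

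STZ alone against control gave no call. The 9 members had differences between 0.18 and 1.30, the highest in Egr1 (1.30 ± 0.93) and Fos (0.93 ± 0.74), and 0 of 9 passed (limma adjusted p = 0.9996 for each), nor did any of the 12682 genes (0% called). At an unadjusted p under 0.05 there were 0 members and 161 genes of all. Both groups were split within themselves, control 3 from control 1 and 2, and STZ 2 from STZ 1 and 3, so the ranges overlapped for all 9. The members' median difference was 0.54, or 1.06 without control 3, with 0 of 9 called in either case.

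AOS alone against control likewise gave 0 of 9 calls, with 0.071% of all genes called (limma adjusted p between 0.817 and 0.905 for the members). All 9 differences were negative, between -0.56 for Fos and -0.22 for Atf3. Their median was -0.39 beside -0.09 over all genes, of which only 26.0% were higher in AOS. At an unadjusted p under 0.05 there were 0 members and 521 genes of all. Zfp36 was lower in every AOS library than in any control library, as were 10.2% of all genes. These signs rested on control 3: without it the median was 0.07 and 7 of 9 members were higher in AOS.

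Adding AOS to STZ gave positive differences from STZ for all 9 members, between 0.22 for Fos and 1.11 for Junb with a median of 0.73. Of all genes 73.6% were higher too, with a median of 0.19. Among the members 0 of 9 passed (limma adjusted p between 0.157 and 0.841), against 4.53% of all genes and 3.44% in the higher direction. At an unadjusted p under 0.05 there were 0 members and 4200 genes of all. The STZ and STZ+AOS ranges overlapped for all 9, and without the 3 libraries above 100 FPKM of Cyp11b1 the members' median was 0.31. The interaction, which is the AOS difference with STZ minus that without, lay between 0.71 and 1.60 for the 9 members. It was called for 0 of 9 (limma adjusted p between 0.15 and 0.697) and for 0% of all genes, and its median over the members was 1.06, or 0.63 without control 3. Over all genes its median was 0.29, with 76.4% of them positive.

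Neither transfer group had a member called against STZ. STZ+AOS-FMT had 3 members higher and 6 lower than STZ, between -1.37 for Egr1 and 0.19 for Zfp36, with 0 of 9 called against 0.11% of all genes (limma adjusted p = 0.9995 for each; unadjusted p under 0.05 for 0 members and 479 genes of all). STZ+control-FMT had 9 higher, between 0.27 for Atf3 and 1.35 for Fos, with 0 of 9 called against 0.103% of all genes (unadjusted p under 0.05 for Jun among the members and for 281 genes of all). Of all genes 53.2% were higher than STZ in STZ+AOS-FMT and 56.3% in STZ+control-FMT. Without STZ+control-FMT 2 the members' median difference of STZ+control-FMT turned from 0.58 to -0.05 and 4 of 9 members were higher.

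Between the donors, Fos and Egr1 were lower in every STZ+AOS-FMT library than in any STZ+control-FMT library, as were 4.85% of all genes. Fos differed by -2.15 ± 0.74 and Egr1 by -2.32 ± 0.93, with unadjusted p of 0.0114 and 0.0244 in limma and an adjusted p of 1, and 0 of 9 members and 0% of all genes were called (209 genes of all at an unadjusted p under 0.05). Zfp36 and Dusp1, by contrast, had differences of -0.39 ± 0.39 and -0.35 ± 0.47. The median over the 9 members was -0.68, and -0.06 without STZ+control-FMT 2, so the median difference rested on that 1 library, while Fos and Egr1 were also above the STZ+AOS-FMT range in the other 2. In STZ+control-FMT 2 Cyp11b1 was listed at 0, the adrenal sum was 4.61 FPKM and the injured tubule sum 201.86, within the range of the other 5 transfer libraries (177.61 to 273.38). Its neutrophil marker sum was 10.08 FPKM against 1.92 to 3.80 in those 5. Outside the transfer groups this sum was higher still in control 1 (11.72 FPKM), STZ+AOS 1 (30.76) and STZ+AOS 3 (10.55). Control 1 held all 10 genes in their lowest 6 libraries, whereas STZ+AOS 1 and STZ+AOS 3 held most of them in their top 6. The part of neutrophils in the members' levels was not tested.

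**Figure D4:**
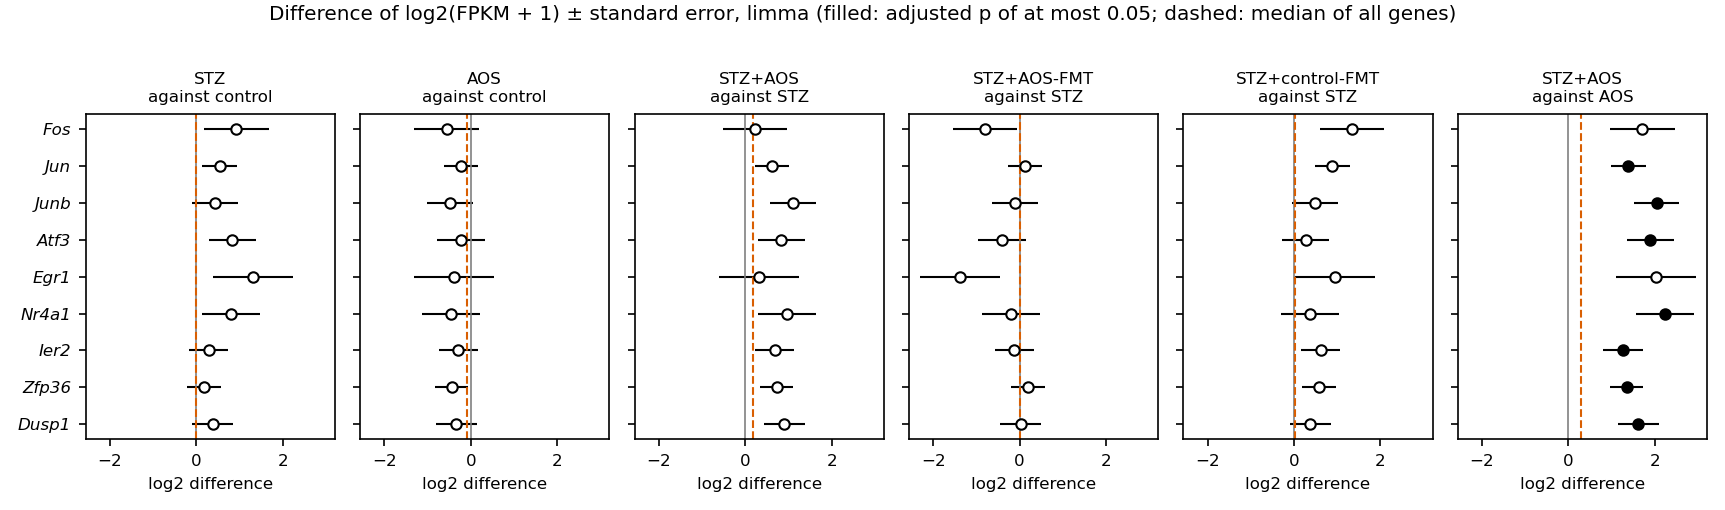
Log2 differences (points) with standard errors (bars) of the 9 tested genes in 6 comparisons; filled points passed an adjusted p of 0.05 and the dashed line is the median of all genes. Filled points occur in STZ+AOS against AOS only, for 7 of the 9 genes.

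When the 4 groups with STZ were set against the 2 without it, the 9 members had differences between 0.73 for Ier2 and 1.48 for Egr1 and a median of 1.06 against 0.11 over all genes. All 9 had an unadjusted p under 0.05, as did 3584 genes of all. None passed after adjustment (0 of 9, limma adjusted p between 0.108 and 0.133), against 0.0552% of all genes. The count changed with single libraries and with the weighting of libraries. Without control 3 all 9 passed, with Junb at 1.37 (limma adjusted p = 0.00906) and Fos at 1.63 (0.0239), and so did 33.6% of all genes. All 9 also passed with library weights, and Jun and Atf3 did without STZ 1. With all 3 libraries above 100 FPKM of Cyp11b1 left out, 7 of 9 passed, Egr1 (adjusted p = 0.0566) and Ier2 (0.0709) being the exceptions, against 32.3% of all genes. A test of any difference among the 6 groups called 0 of 9 members (adjusted p between 0.0847 and 0.206) and 0.647% of all genes, with 3942 genes of all at an unadjusted p under 0.05.

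Other transcripts moved with these genes from library to library, but not in all libraries. Kap, an androgen-regulated proximal tubule transcript, lay between 144521 and 155154 FPKM in control 1, control 2, STZ 1 and the 3 AOS libraries and between 6174 and 85880 in the other 12. Cdkn1a, the p53 target p21, was at 14.92 FPKM or less in those 6 libraries and at 23.44 or more in the others. All of the 6 but STZ 1 were low in the immediate early genes: STZ 1 stood apart, with Fos at 3.65 and Egr1 at 11.74 FPKM beside Cdkn1a at 6.52. STZ 2, with Cdkn1a at 62.49 FPKM, was low in them, with Fos at 0.67. The highest library of all, STZ+control-FMT 2, had Cdkn1a at 27.40 FPKM, where the transfer libraries lay between 23.44 and 40.34. The part of these differences in the members' levels was not tested.

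**Figure D5:**
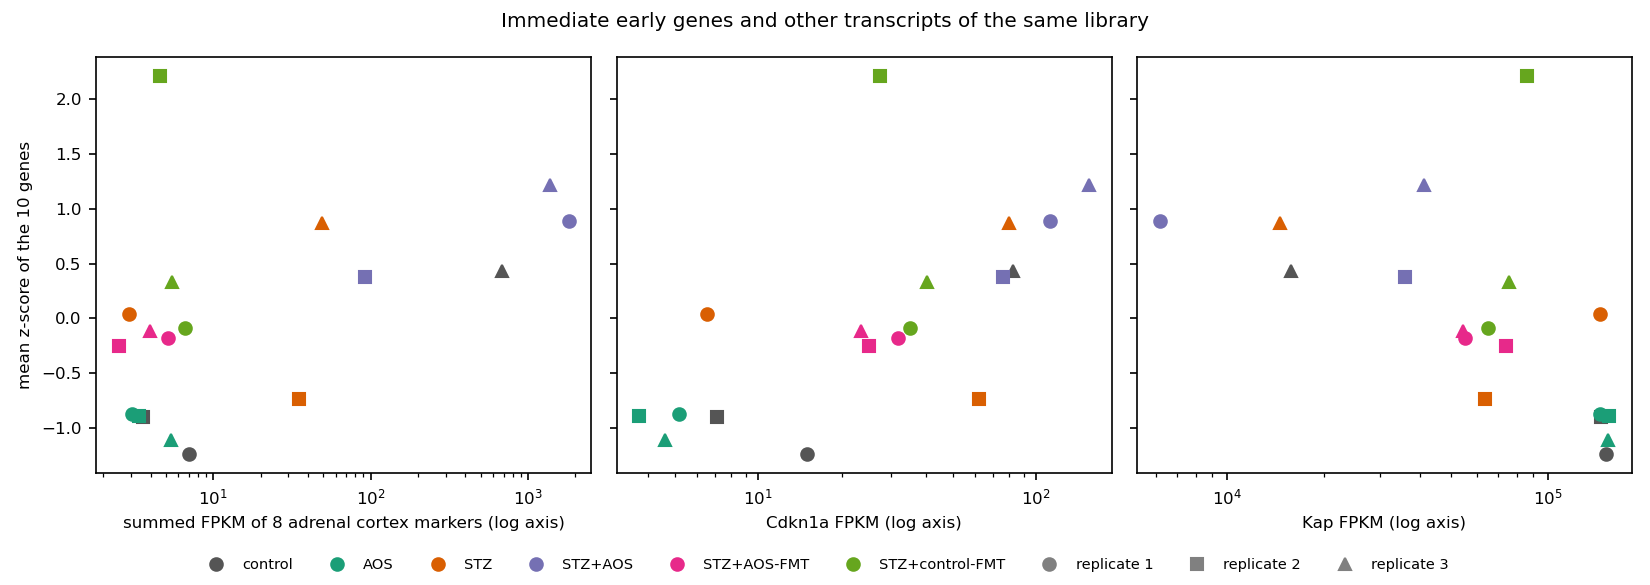
Mean z-score of the 10 genes in each library (each gene's log2(FPKM + 1) scaled to its own mean and SD over the 18 libraries) against the summed FPKM of 8 adrenal cortex markers, Cdkn1a FPKM and Kap FPKM (log axes); colours are groups and symbols replicates. STZ+control-FMT 2, at 2.21, is the highest point in each panel at low adrenal signal, and STZ 2, at -0.74, is low at high Cdkn1a.

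Relatives of the members by family were counted in the same fit. Of 27 relatives 19 were tested, and 13 rose in STZ+AOS against AOS and 0 fell, with a median of 0.70, beside 39.3% of all genes called higher and 0.29 over all genes. Fosl2, the Fos-related antigen Fra-2, rose from 1.96, 1.77 and 1.45 FPKM to 14.20, 8.20 and 13.43 (2.22 ± 0.40, limma adjusted p = 0.00590). Maff, a small basic leucine zipper protein, rose by 1.75 ± 0.43 (adjusted p = 0.00874) and Dusp5, a phosphatase of ERK, by 1.18 ± 0.22 (0.00590). Against STZ, 3 of 19 relatives rose, beside 3.44% of all genes called higher: Fosl2 (1.54 ± 0.40, adjusted p = 0.0478), Dusp5 (0.83 ± 0.22, 0.0478) and Jund (0.61 ± 0.12, 0.0335). Jund, the Jun family member that is expressed at a steady level in most cells, had STZ+AOS levels of 88.39, 73.48 and 77.58 FPKM, STZ levels of 47.38, 47.25 and 62.35, and AOS levels of 46.96, 48.17 and 42.44. Its level exceeded those of all 10 genes in every library but STZ+AOS 3 and STZ+control-FMT 2.

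Of 38 other early response genes 36 were tested, and 29 rose in STZ+AOS against AOS and 0 fell, with a median of 1.36, again beside 39.3% called higher and a median of 0.29 over all genes. The leading ones by the naming rule were Btg2, an antiproliferative p53 target (2.41 ± 0.55, limma adjusted p = 0.00740), the transcription factor Cebpd (2.36 ± 0.54), the stress gene Gadd45b (2.33 ± 0.55), the glucocorticoid-regulated kinase Sgk1 (2.27 ± 0.51) and the kinase Plk3 (2.26 ± 0.42). Against STZ, 3 of these 36 rose, beside 3.44% of all genes: the transcription factor Cebpb (1.45 ± 0.33, adjusted p = 0.0394), at 53.21, 25.03 and 61.47 FPKM, with 9.92, 15.65 and 22.71 in STZ, the pseudokinase Trib1 (0.87 ± 0.24, 0.0497) and Klf6 (1.34 ± 0.35, 0.0486). Klf6, a zinc finger factor, is outside the naming rule because its groups overlapped, and it was named after its values were seen.

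Of 27 signalling and promoter factors that act before the immediate early genes 26 were tested, and 14 rose in STZ+AOS against AOS, beside 39.3% of all genes, at a median of 0.33 beside 0.29 over all genes. Elk3, a partner of serum response factor, rose by 0.91 ± 0.21 (limma adjusted p = 0.00781), and the coactivators of that factor Mkl2 and Mkl1 by 0.82 ± 0.14 (0.00590) and 0.72 ± 0.14 (0.00606). Against STZ, 3 of the 26 rose beside 3.44% of all genes: Mkl2 (0.68 ± 0.14, adjusted p = 0.0352), Mkl1 (0.58 ± 0.14, 0.0465) and the ERK-activated kinase Rps6ka3 (0.40 ± 0.10, 0.0468). Downstream, 6 of 8 tested AP-1 target genes rose against AOS, beside 39.3% of all genes, among them the protease inhibitor Timp1 (3.02 ± 0.79, adjusted p = 0.0108), which measured 72.33, 4.91 and 1.92 FPKM in STZ+AOS, and the hyaluronan receptor Cd44 (2.11 ± 0.43, 0.00629). Against STZ, 2 of the 8 rose, beside 3.44% of all genes: Cd44 (1.83 ± 0.43, limma adjusted p = 0.0420) and the haem oxygenase Hmox1 (1.28 ± 0.32, 0.0475). Cd44 measured 6.31, 1.58 and 12.03 FPKM in STZ+AOS and 0.48, 0.82 and 1.02 in STZ. Hmox1 measured 140.39, 68.87 and 213.81 FPKM in STZ+AOS and 33.72, 53.57 and 76.41 in STZ. Both were highest in STZ+AOS 1 and STZ+AOS 3. Hmox1 was named after its values were seen, since its groups overlapped. Of 9 transcripts that tristetraprolin is known to destabilise only 3 were expressed enough to test, and 1, the chemokine Cxcl1, rose (1.69 ± 0.53, adjusted p = 0.0206). In all 5 lists 0 genes fell in this comparison, and 0 were called in either direction for STZ, for AOS, for the transfers, for the interaction or for the 4 groups with STZ together.

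The genes most like the members were sought among 11674 others by the correlation of log2(FPKM + 1) with the mean z-score of the 9 tested members over the 18 libraries. Btg2 was first (r = 0.88, rho = 0.92), followed by Napa (0.87), Tfpt (0.86), Prr3 (0.85) and Fam104a (0.85), where the median over the 11674 genes was 0.40. Jund was the eighth, at 0.83. After group means were subtracted, Btd (0.89), Pdilt (0.89), Prr3 (0.86), Rpp25 (0.86) and Ppfia1 (0.85) led, beside a median of 0.21, and none of the first 10 was on the lists above. Prr3 is the gene among the first 10 of both orders. These likenesses come from the same libraries and hold for those libraries only.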

How the data were processed

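The authors deposited 1 table of gene values for the 18 libraries, taken as FPKM because value times GENCODE (mouse release 21) length sums to nearly the same total in each (coefficient of variation 0.939%; 5.48% for the plain sum). Per the submitters' processing notes Bowtie 0.12.2 and mm10 were used; the counter and annotation were not given in the sources used here. Read totals are not known, so no counting interval is given.

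All 12682 genes reaching 1 FPKM in 3 libraries were fitted as log2(FPKM + 1) with limma 3.58.1 (R 4.3.3; trend, robust), 1 mean per group, after tests on simulated data. Members, lists and tests were chosen with earlier results of these data known. From each list, the 5 called genes with the largest difference and no overlap between groups could be named. Alternatives were other scalings, filters, pseudocounts, variance settings, library weights, a fit of the compared groups, a replicate block and each library left out.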

Additional observations from a re-analysis of the deposited data

How the results depend on the processing

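In STZ+AOS against AOS, 7 of 9 members were called, beside 46.5% of all genes. The count was 4 with rescaling by median of ratios, 3 to 9 with each library left out in turn (4 without AOS 3 or STZ+AOS 1, 3 without STZ+AOS 3, 9 without STZ+control-FMT 2), 6 with quantile normalization or library weights, 8 with a pseudocount of 0.1, and 0 with the 3 libraries above 100 FPKM of Cyp11b1 left out, where STZ+AOS has 1 library, assumed to vary like the other groups. Over all its alternatives the limma adjusted p of Junb ran from 0.00278 to 0.103, of Jun from 0.00559 to 0.199, of Nr4a1 from 0.00639 to 0.153, of Fos from 0.00207 to 0.269 and of Egr1 from 0.00836 to 0.389, and no member's difference changed sign. In the 4 groups with STZ against the 2 without, 0 members were called, beside 0.0552% of all genes. With each library left out the count of members ran from 0 to 9. It was 9 without control 3, beside 33.6% of all genes, and 2 without STZ 1 (Jun and Atf3). It was 9 with library weights, 9 without both control 3 and STZ 1, and 7 with the 3 Cyp11b1 libraries left out. For any difference among the groups the count was 0, beside 0.647% of all genes. It was 8 with library weights, 0 to 4 with each library left out (4 without control 3), and 4 without control 3 and STZ 1 together. For all these, beyond the number of libraries, the cause was not tested. The settings without several libraries were chosen after seeing the data. In STZ+AOS against AOS the share of all genes called moved as well, to 33.2% with median of ratios and 45.4% without STZ+AOS 3. A count of members alone is therefore not a result about these genes. The other 7 comparisons had 0 members called under every alternative run. The replicate block gave 7 called members in STZ+AOS against AOS and changed no count of members. The replicate numbers were not shown to pair the libraries. The 45 pairs of the same number from different groups had correlations of deviations from -0.26 to 0.67 (median -0.0038). The 90 pairs of different numbers had correlations from -0.72 to 0.59 (median 0.0014), and 6 of 18 libraries were closest to their own number. The block moved the count of all genes called in STZ+AOS against STZ from 575 to 1116. Depth is unknown, which limits what can be said of Fosb and of Fos and Atf3 near 1 FPKM.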
